A study of Homo sapiens with 6 samples.

Results

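The genes described here are 6 listed under ISG15 conjugation and its reversal: ISG15, UBA7, UBE2L6, HERC5, HERC6 and USP18. HERC6 is included as the homologue of HERC5. They were taken by symbol from a panel of 20802 genes, and all 6 were among the 11779 genes that passed the filter on low counts. The 6 were chosen by their counts and RPM in these same libraries, all being higher in GIRK1-overexpressing cells than in the eGFP libraries and in wt replicate 2. Their differences between GIRK1 and control cells are therefore given as a description, without a p-value for any single gene. Intervals and thresholds shown for them in these contrasts belong to that description, and nothing is read from which genes passed.

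The study asked what overexpression of GIRK1, a potassium channel subunit encoded by KCNJ3, does to MCF10A, a long-established line of human mammary epithelium that does not form tumours. Of 6 libraries, 2 were labelled wt (untransfected MCF10A), 2 eGFP (MCF10A with the vector pIRES2eGFP alone) and 2 GIRK1 (MCF10A with the same vector carrying the GIRK1 coding sequence, so that these cells also express eGFP). Both transfected lines were made with Lipofectamine, kept under G418 and sorted on eGFP fluorescence, and the cells were harvested below full confluence without further treatment. RNA was measured by Ion AmpliSeq Transcriptome sequencing, which counts the reads of a single short PCR product for each gene.

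The sources speak of replicates in one place and of lines in another, so p-values measure the spread between these libraries, which may be technical. The names of the deposited data give the GIRK1 libraries a tag that the other 4 libraries do not have. If it marks a run, an effect of that run cannot be told apart from GIRK1. If each construct was carried by a single line, a trait or passage of that line cannot be told apart from GIRK1. In bulk RNA, more expressing cells and more RNA per cell cannot be told apart either.

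ISG15 is a small ubiquitin-like protein whose gene is among those most strongly switched on by type I interferon. It is attached to lysines of other proteins by a chain of enzymes that runs parallel to that of ubiquitin. UBA7 is the activating enzyme (E1), UBE2L6 the conjugating enzyme (E2) and HERC5 the main human ligase (E3), while USP18 removes ISG15 from its targets. The genes of all these enzymes are themselves interferon-stimulated in many cell types, and USP18 also dampens signalling at the interferon receptor through IFNAR2 and STAT2.

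Levels are given as reads-per-million (RPM), scaled to the library total, and are compared between libraries and not between genes, because amplicons differ in how well they amplify. The libraries held 2506120 to 16040556 reads, and 3 reads, taken as the smallest level that can be shown, stood for 0.187 to 1.20 RPM per library. KCNJ3 was at 217 and 355 RPM in the GIRK1 libraries and at 0 RPM in both eGFP libraries and in wt replicate 2. Against the eGFP floor of 0.585 RPM the GIRK1 mean was at least 489-fold higher. The library labelled wt replicate 1 stood apart from the other 5. It held 19.2 RPM of KCNJ3, its 14 luminal markers summed to 19811 RPM against 731 to 1101 RPM elsewhere, and its 11 basal markers, which define MCF10A, summed to 400 RPM against 10524 to 19077 RPM. The estrogen receptor gene ESR1 was at 192 RPM there and at 0 RPM in the other 5 libraries. This library was therefore kept out of the fit and is shown apart. The basal marker TP63 was at 0 in all 6 libraries, and the 10 leukocyte, fibroblast and endothelial markers summed to 10.8 to 31.6 RPM, with PTPRC and CD3E at 0 throughout.

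ISG15 itself, the modifier, showed the greatest difference of the 6 genes. Its amplicon (positions 68 to 173 of NM_005101) gave 15.2 and 24.0 RPM in the eGFP libraries, 36.2 RPM in wt replicate 2, and 667 and 861 RPM in the GIRK1 libraries. The GIRK1 values rest on 7405 and 8907 reads and the eGFP values on 78 and 246. The lower GIRK1 library was 18.4-fold above the highest of the 3 controls, so the groups did not overlap. On the log2 scale the fitted difference from eGFP was 5.24 ± 0.32 (SE; n = 2 libraries a group), a fold of 37.9, and the gene ranked 41 of 11779 by this difference.

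UBA7, the E1 that activates ISG15, was barely read in the controls. It gave 3.32 and 2.93 RPM in eGFP, 4.99 RPM in wt replicate 2, and 55.5 and 57.0 RPM in GIRK1. The control values rest on 17, 30 and 80 reads, whereas the GIRK1 values rest on 617 and 590, and these were the closest pair of GIRK1 replicates among the 6 genes. The fitted log2 difference from eGFP was 4.15 ± 0.28 (SE), a fold of 17.7.

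UBE2L6, the E2, had the smallest difference from eGFP. Its levels were 20.9 and 19.2 RPM in eGFP, 28.6 RPM in wt replicate 2, and 84.1 and 118 RPM in GIRK1. All 3 controls lay below both GIRK1 libraries, with the lower GIRK1 library 2.94-fold above the highest control. The fitted log2 difference from eGFP was 2.30 ± 0.27 (SE), a fold of 4.92.

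The HERC genes lie side by side on chromosome 4 and encode related ligases. HERC5, the main E3 for ISG15 in human cells, gave 9.75 and 7.62 RPM in eGFP, 6.48 RPM in wt replicate 2, and 36.7 and 58.8 RPM in GIRK1. HERC6, whose mouse counterpart is the main ISG15 ligase of that species, gave 5.46 and 5.77 RPM in eGFP, 6.73 RPM in wt replicate 2, and 107 and 125 RPM in GIRK1. In both genes the controls lay close together and below GIRK1. The fitted log2 difference from eGFP was 2.43 ± 0.34 (SE) for HERC5, a fold of 5.40, and 4.33 ± 0.25 (SE) for HERC6, a fold of 20.1. The replicates of GIRK1 were 1.60-fold apart for HERC5, the widest gap of the 6 genes, and 1.16-fold apart for HERC6.

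USP18, the enzyme that takes ISG15 off its targets, gave 10.1 and 7.92 RPM in eGFP, 9.79 RPM in wt replicate 2, and 58.2 and 73.3 RPM in GIRK1. The lower GIRK1 library was 5.73-fold above the highest control. The fitted log2 difference from eGFP was 2.84 ± 0.29 (SE), a fold of 7.14. USP41, a near-identical copy of USP18, has no amplicon of its own in the panel, and how reads shared by such copies were counted was not tested.

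**Figure D1:**
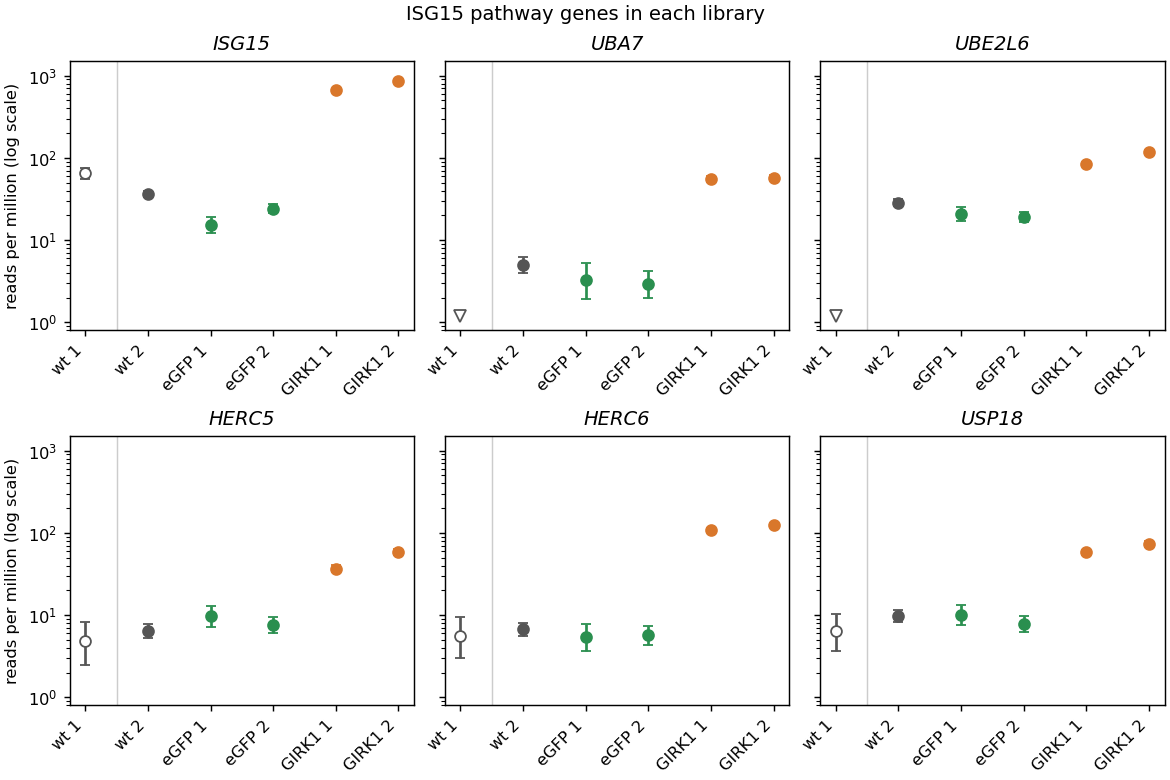
Level of each of the 6 genes in each of the 6 libraries, in RPM on a log axis. Points are single libraries with exact 95% binomial intervals for counting error, open circles are the library labelled wt replicate 1, and open triangles mark 0 reads, drawn at the level of 3 reads. Both GIRK1 libraries lie above the eGFP libraries and wt replicate 2 for every gene.

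Across the pathway, the modifier, its E1, E2 and E3 and the removing enzyme were thus all higher in GIRK1 than in eGFP cells. In the quasi-likelihood test of edgeR, after Benjamini-Hochberg adjustment, 6 of 6 passed the threshold of 0.05 as higher, against 0.756% of all genes tested, and 0 of 6 as lower, against 0.84%. The choice of the genes used this contrast, so nothing is read from the count. The median log2 difference of the 6 was 3.49, and that of all genes tested was 0.016. Both GIRK1 libraries were above both eGFP libraries and wt replicate 2 for 6 of 6 genes, as they were for 21.6% of all genes. With the library labelled wt replicate 1 added to the wt group, 0 of 6 passed in the same test, and 5 of 6 had an unadjusted p below 0.05. Of all 11546 genes tested in that fit, 0 passed and 606 had an unadjusted p below 0.05. Of 10 basal markers tested against eGFP, 1 was called higher in GIRK1 (KRT17) and 2 lower (among them LAMB3). Their median log2 difference was -0.59 from eGFP and -0.08 from wt replicate 2. The summed level of the 11 basal markers was 11385 and 11850 RPM in GIRK1. It was 19077 and 12907 RPM in eGFP and 10524 RPM in wt replicate 2. The part of these markers in the result was not tested.

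Against wt replicate 2, a single library assumed to vary like the other groups, the log2 differences were 4.42 for ISG15, 3.51 for UBA7, 1.84 for UBE2L6, 2.90 for HERC5, 4.13 for HERC6 and 2.77 for USP18. This comparison shares the GIRK1 libraries with the one above. In the edgeR fit 3 of 6 passed the adjusted threshold (ISG15, UBA7 and HERC6), against 0.195% of all genes as higher. The choice of the genes used this contrast as well, so nothing is read from the count. It moved with the processing, as did the 27 genes called in all in either direction. All 6 passed by DESeq2 (128 genes in all), without the filter on low counts (133) and without eGFP replicate 1 (576) or 2 (449), and 0 passed with all 6 libraries (0). The GIRK1 replicates were 1.03-fold apart for UBA7 up to 1.60-fold for HERC5, with replicate 2 the higher for each of the 6 genes. How often replicate 2 was the higher over all genes was not counted, so nothing is read from this order.

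**Figure D2:**
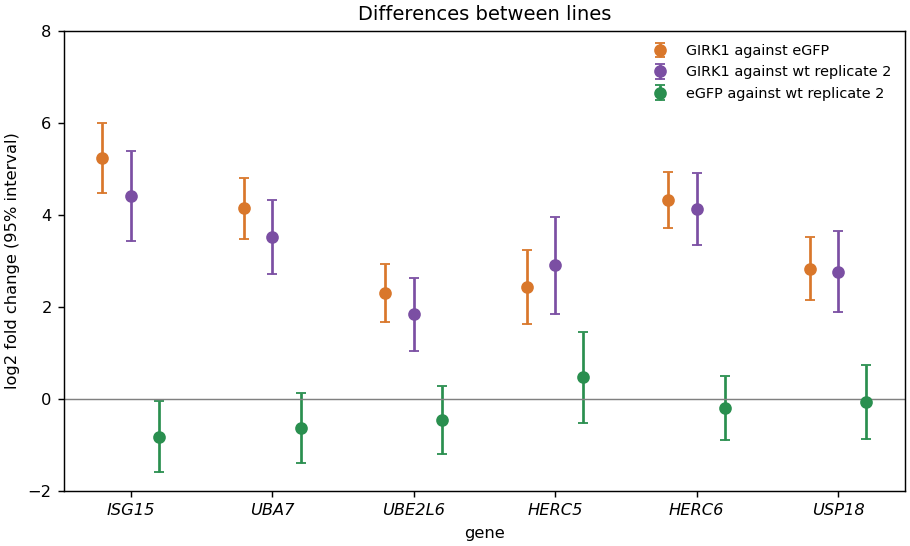
Fitted log2 fold changes of the 6 genes in 3 comparisons, with 95% intervals from the edgeR quasi-likelihood fit of 5 libraries. The differences of GIRK1 from either control lie between 1.84 and 5.24, and those between the controls between -0.82 and 0.47.

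The comparison of the controls with each other was not used to choose the genes. No member passed the adjusted threshold in eGFP against wt replicate 2, as 0% of all genes did in the edgeR fit (418 of 11779 had an unadjusted p below 0.05, and DESeq2 called 5). Of the 6, only ISG15 had an unadjusted p below 0.05, and DESeq2 called 0. The level of ISG15 was lower in both eGFP libraries than in wt replicate 2, with a log2 difference of -0.82 (95% interval -1.59 to -0.05). Its edgeR p was 0.0399 before and 0.953 after adjustment, and the alternatives gave adjusted values from 0.0287, without eGFP replicate 2, to 1. The log2 differences of the other genes were -0.63 for UBA7, -0.46 for UBE2L6, 0.47 for HERC5, -0.20 for HERC6 and -0.07 for USP18. Their 95% intervals all held 0, reaching down to -1.40 for UBA7 and up to 1.46 for HERC5, and the narrowest ran from -0.89 to 0.49 for HERC6. In order of level, GIRK1 was thus first for every gene. Wt replicate 2 came next for ISG15, UBA7, UBE2L6 and HERC6, eGFP next for HERC5, and for USP18 wt replicate 2 lay between the eGFP libraries.

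In the library labelled wt replicate 1 the pathway had a different make-up. ISG15 was at 65.0 RPM (exact 95% binomial interval 55.4 to 75.8, counting error only), above all 3 controls and below both GIRK1 libraries. UBA7 and UBE2L6, the E1 and E2, had 0 reads, where the floor of 3 reads stands at 1.20 RPM and the upper bound of the exact 95% interval at 1.47 RPM. Against the floor of 3 reads, wt replicate 2 was at least 4.17-fold higher for UBA7 and at least 23.9-fold higher for UBE2L6. At the level of wt replicate 2, a library of this depth would have held 12.5 reads of UBA7 and 71.7 of UBE2L6. HERC5, HERC6 and USP18 were at 4.79, 5.59 and 6.38 RPM, from 12, 14 and 16 reads. Each of these was 0.652 to 0.830 of its level in wt replicate 2, which lay within the exact 95% interval of its count here. These intervals were 2.47 to 8.36 RPM for HERC5, 3.05 to 9.37 RPM for HERC6 and 3.65 to 10.4 RPM for USP18.

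The 6 genes lie at 5 places in the genome (GENCODE 29 on GRCh38, gene bounds matched by symbol). ISG15 lies at chr1:1001138-1014540 on the plus strand, UBA7 at chr3:49805207-49813946 on the minus strand and UBE2L6 at chr11:57551656-57568284 on the minus strand. HERC6 (chr4:88378739-88443111) and HERC5 (chr4:88457117-88506163) are 14.0 kb apart, both on the plus strand, and USP18 lies at chr22:18149899-18177397 on the plus strand. After the values were known, the nearest protein-coding genes of the panel on either side of each gene were looked up. There were 10 such genes outside the 6, of which 6 were tested. In GIRK1 against eGFP none of these passed the adjusted threshold in edgeR, 3 had an unadjusted p below 0.05, and DESeq2 called 1. Over all 11779 genes, edgeR called 1.6%, 2218 had an unadjusted p below 0.05, and DESeq2 called 677. Their log2 differences ran from -0.52 to 0.97. PYURF, next to HERC5, was at 78.8 and 110 RPM in eGFP and 186 and 154 RPM in GIRK1, a log2 difference of 0.82. PPM1K, next to HERC6, was at 21.8 and 26.9 RPM in eGFP and 28.1 and 35.7 RPM in GIRK1, a log2 difference of 0.35.

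Promoter windows of RefSeq (GRCh38.p14, from 250 bases before to 50 bases after the start site) were at hand for ISG15, UBE2L6, HERC5 and HERC6 and not for UBA7 and USP18. The start sites are those of RefSeq, so a window can lie within the GENCODE bounds given above. That of ISG15 did, and that of HERC6 did in part. Interferon-stimulated promoters often carry a response element built on a doubled GAAA. The letters GAAANNGAAA, where N is any base, were searched on both strands (TTTCNNTTTC on the other strand). They were found in 3.57% of all 35116 windows, in ISG15 and HERC5, and not in UBE2L6 or HERC6. The stretch from 150 to 51 bases before the start site is shown for ISG15 and for both HERC neighbours, since these neighbours differed in size of change, with matched bases in capitals.
ISG15 (chr1:1013347-1013446, plus strand): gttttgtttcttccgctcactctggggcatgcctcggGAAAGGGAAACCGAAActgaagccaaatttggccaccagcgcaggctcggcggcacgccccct
HERC5 (chr4:88456969-88457068, plus strand): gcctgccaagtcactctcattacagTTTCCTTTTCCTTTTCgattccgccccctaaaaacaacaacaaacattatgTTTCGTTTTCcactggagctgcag
HERC6 (chr4:88378702-88378801, plus strand): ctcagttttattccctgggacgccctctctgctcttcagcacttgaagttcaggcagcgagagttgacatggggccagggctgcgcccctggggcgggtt

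In ISG15 a pair of overlapping matches began 113 and 107 bases before the start site, on the strand of the gene. In HERC5 the matches began 125, 119 and 74 bases before it, all on the opposite strand. HERC6, with the larger difference of the neighbours, had no match, which says only that these letters are not in this window. Of the 24 other interferon-stimulated genes described below, 18 had a window and 14 of these held the letters, beside 4.38% of all genes with a window.

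To place the 6 genes, further lists written with earlier results of these data known were counted in the same edgeR fit of GIRK1 against eGFP. Of all 11779 genes in it, 1.6% were called in either direction and 2218 had an unadjusted p below 0.05. DESeq2 called 677 of them. These counts over all genes stand beside each of the lists that follow. The closest relatives of the pathway did not pass. Of 17 tested genes for E1 and E2 enzymes of ubiquitin, SUMO, NEDD8 and related modifiers and for other HERC proteins, 0 were called in edgeR or DESeq2, and 2 had an unadjusted p below 0.05, both lower. Their median log2 difference was 0.047. UBA1, the main E1 of ubiquitin, was at 459 and 348 RPM in eGFP and 348 and 374 RPM in GIRK1. UBE2L3, the ubiquitin E2 closest in sequence to UBE2L6, was at 272 and 223 RPM in eGFP and 228 and 251 RPM in GIRK1, a log2 difference of -0.10.

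Other ubiquitin-like modifiers behaved alike in this respect. Of 12 tested, 0 were called by edgeR or DESeq2 and 1 had an unadjusted p below 0.05, with a median of 0.15. RPS27A, which encodes ubiquitin fused to a ribosomal protein, was at 1352 and 1729 RPM in eGFP and 2250.0 and 2072 RPM in GIRK1, a log2 difference of 0.45. MAP1LC3B is not in the panel, and HERC3, of the enzyme list above, had 0 reads in all 6 libraries.

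Of 14 cofactors, 13 were tested and 2 were called. These are other ligases and proteases that act on ISG15, partners of USP18 at the interferon receptor, and the chains of LFA-1, the receptor for secreted ISG15. STAT2, the partner of USP18, rose from 30.0 and 30.7 RPM in eGFP to 116.7 and 142.8 RPM in GIRK1, a log2 difference of 2.06 ± 0.22 (SE). ITGB2, the beta chain of LFA-1, was at 15.6 and 4.50 RPM in eGFP and at 6.11 RPM in wt replicate 2. In GIRK1 it was at 0.180 and 0.193 RPM, below the floor of 3 reads in these libraries (0.270 and 0.290 RPM). ITGAL, the alpha chain, had 0 reads in all libraries. The median of the cofactors was -0.12.

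Of 18 proteins known to be modified by ISG15, 4 were called higher and none lower in edgeR, with a median of 0.39 over the list. Among them were IFIT1 (log2 difference 7.31), which restrains translation of viral RNA, DDX58 (3.33), the RNA sensor RIG-I, and EIF2AK2 (1.87), the kinase PKR. All of these are interferon-stimulated as well, and IFIT1 and DDX58 also stand among the interferon-stimulated genes counted below. At an unadjusted p below 0.05 in edgeR, 7 were higher and 2 lower, beside 2218 of all 11779 genes in either direction. DESeq2 called 6 higher and 1 lower, beside 677 of all genes in either direction.

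IRF9, a transcription factor that works with STAT2 at interferon-stimulated promoters, was called higher too. It rose from 15.6 and 13.0 RPM in eGFP to 110 and 151 RPM in GIRK1, a log2 difference of 3.16 ± 0.28 (SE). The difference of IRF9 from eGFP lay within the range of the 6 ISG15 genes, and that of STAT2 just below it.

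Of 24 other interferon-stimulated genes, 23 were tested, 19 were called higher against eGFP and 11 against wt replicate 2. Their median log2 difference from eGFP was 5.09, or 4.14 with the 3 genes at 0 reads in eGFP set to their lower bound. Both medians are above the 3.49 of the ISG15 genes, a difference that was not tested. IFI6 rose from 35.9 and 15.6 RPM to 6613 and 9858 RPM, a log2 difference of 8.28 ± 0.58 (SE). OAS2, a sensor of double-stranded RNA, rose from 0.780 and 0.293 RPM to 82.5 and 108 RPM. CMPK2, a mitochondrial nucleotide kinase, was at 0 and 0.098 RPM in eGFP, both below the floor of 3 reads, and at 18.4 and 14.0 RPM in GIRK1. SAMD9L, at 0 RPM in both eGFP libraries, was at 3.33 and 5.12 RPM in GIRK1, at least 7.22-fold higher against the eGFP floor of 0.585 RPM.

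**Figure D3:**
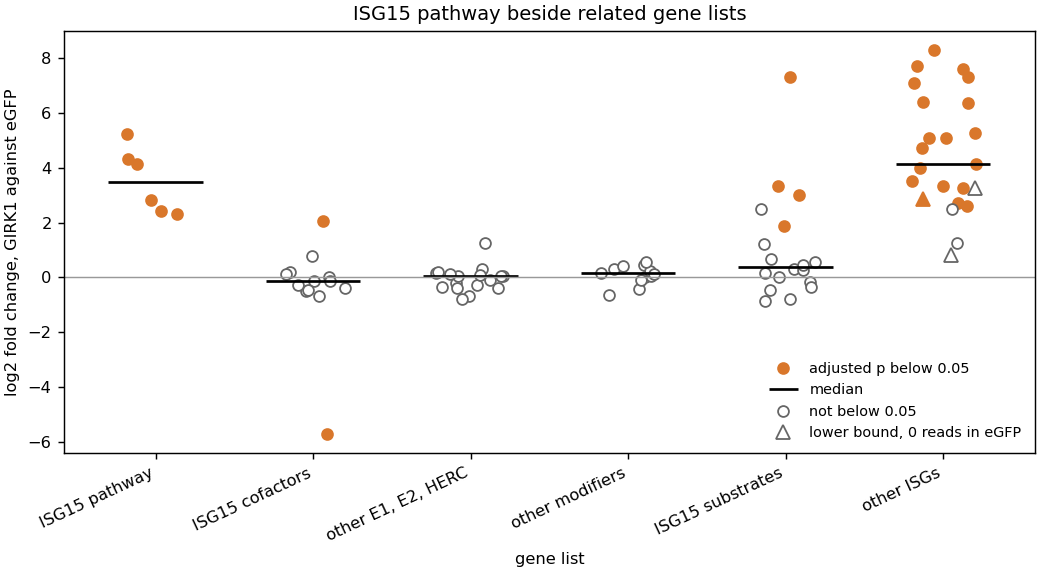
Log2 fold change of GIRK1 against eGFP for each tested gene of 6 lists. Filled symbols have an adjusted p below 0.05, bars are list medians, and triangles are lower bounds for genes with 0 reads in eGFP. The 6 ISG15 genes lie between 2.30 and 5.24, while the medians of the other conjugating enzymes and modifiers are 0.047 and 0.15.

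The genes whose profile over the 5 fitted libraries was most like the mean of the 6 were sought by Euclidean distance between log2 CPM (the TMM-scaled counterpart of RPM), centred per gene. The nearest was DDX58, at a distance of 0.39 log2 units, and the 8 nearest, among them IRF9, IFIT5, IFI35, REC8, IFIT2 and ETV7, lay at up to 0.69. The median distance over all genes was 3.78. Among the 6 themselves the distance from their mean ran from 0.60 for UBA7 to 1.84 for ISG15. The 8 were taken as the closest of 11773 other genes, whereas the 6 were not chosen by distance, so these ranges are not compared. The profile is made of the libraries whose values served to choose the 6, so the likeness is only a description. DDX58 was at 17.0 and 23.0 RPM in eGFP and 173 and 239 RPM in GIRK1. REC8, a meiotic cohesin subunit, was at 2.34 and 1.47 RPM and then at 14.4 and 19.5 RPM. ETV7, an ETS-family transcription factor, was at 0.195 and 0 RPM and then at 2.34 and 3.77 RPM.

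**Figure D4:**
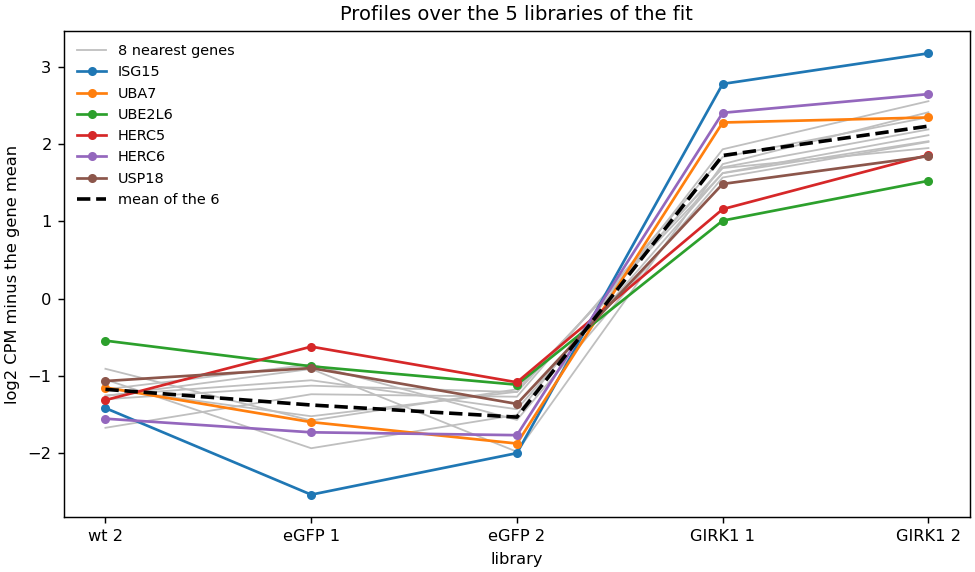
Log2 CPM of each gene minus its own mean, in the 5 libraries of the fit. Coloured lines are the 6 ISG15 genes, the dashed line is their mean, grey lines are the 8 nearest other genes, and lines join points only to guide the eye. All lines step up between the controls and the GIRK1 libraries, with ISG15 covering the widest range and UBE2L6 the narrowest.

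The reads of each amplicon were also taken by direction. The log2 ratio of GIRK1 to eGFP was 5.30 from forward and 5.26 from reverse reads for ISG15, and 2.42 and 2.24 for UBE2L6. It differed more for HERC5, at 2.94 forward and 2.07 reverse, and for HERC6, at 4.72 and 4.04. Reads that span the whole amplicon gave 2.50 and 4.31 for these 2 genes, near the 2.46 and 4.37 from all reads.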

How the data were processed

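Expression was measured in 6 libraries labelled as MCF10A cells (2 wt, 2 eGFP, 2 GIRK1). The authors ran the RNA workflow of the Ion Torrent suite against the AmpliSeq transcriptome and deposited, per amplicon, whole-number read counts, split by direction and end-to-end coverage, and an RPM value, which is the count scaled to the library total. The other deposited columns gave amplicon position and GC bases. Aligner version and the handling of reads from near-identical copies are not given in the sources used here. The 10 spike-in rows held 0 reads and were left out.

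The 6 genes and all lists were chosen with earlier results of these data known. Counts of 5 libraries, without wt replicate 1, were fitted with edgeR 4.0.16 (limma 3.58.1, R 4.3.3): filterByExpr, TMM normalization, then glmQLFit and glmQLFTest with 1 mean per group, the p-values being adjusted by Benjamini-Hochberg over 11779 genes (threshold 0.05). Standard errors were derived from the F value. Named genes were the 6, KCNJ3, STAT2, IRF9, close copies, at most 4 called genes with the largest change per list (the 2 most abundant where fewer than 2 were called), and the 8 nearest profiles, computed with a prior count of 2; chromosome neighbours, single cell type markers and absent or unread genes were named after their values were seen. Counting intervals are exact (Clopper-Pearson, 95%) and cover counting error only. Some genes that the rule names are not reported here. The alternatives covered scaling (upper quartile, library totals, size factors of DESeq2), filtering (a minimum of 10 reads per library, or no filter), the test of DESeq2 1.42.0, all 6 libraries, pooled controls, the replicate number as a block, end-to-end reads, the rule of the study on RPM (means at least 2-fold apart, coefficient of variation below 0.7) and leaving out each replicate. Replicates of 1 group differed by more than sampling noise (chi-square per degree of freedom 31.2 for GIRK1 and 70.3 for eGFP).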

Additional observations from a re-analysis of the deposited data

Results flagged for a closer look

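In the library labelled wt replicate 1, which was kept out of the fit of 5 libraries, ISG15 and KCNJ3 were above their levels in the controls. ISG15 was at 65.0 RPM there, against 15.2 to 36.2 RPM in the eGFP libraries and wt replicate 2. KCNJ3 was at 19.2 RPM (exact 95% binomial interval 14.1 to 25.4, counting error only), against 0 RPM in those 3 libraries. Why this library differs was not tested.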

How the results depend on the processing

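In all alternatives the 6 genes were higher in GIRK1 than in eGFP and in wt replicate 2. Both contrasts were used to choose the genes and the alternatives reuse the same libraries, so nothing is read from the GIRK1 counts below. The counts over all genes follow them. In the fit of all 6 libraries, wt replicate 2 was replaced by the mean of both wt libraries. With pooled controls, GIRK1 was set against eGFP and wt replicate 2 together, which is counted under eGFP. Of 90 values for single genes against eGFP, 84 stayed on their side of the threshold and the 6 that did not were those with all 6 libraries. Of 78 against wt replicate 2, 57 stayed, 18 newly passed and 3 no longer did. Of 78 between the controls, 77 stayed, 1 newly passed and 4 uncalled values changed sign. All 6 genes passed against eGFP in every alternative but the fit of all 6 libraries, where 0 did. Against wt replicate 2, 6 passed without a filter, 6 by DESeq2, 0 with all 6 libraries and 3 to 6 with a replicate left out. Between the controls 0 to 1 passed with a replicate left out; the 1 was ISG15, lower in eGFP replicate 1 with eGFP replicate 2 left out.

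Counts over all genes moved with the processing as well. They are not a yardstick for the 6, whose count cannot exceed 6 and whose choice used these libraries. Against eGFP (188 in the main analysis), 865 genes were called without a filter, 107 with at least 10 reads in every library, 677 by DESeq2, 0 with all 6 libraries, 1309 by the rule of the study and 158 to 2997 with a replicate left out, with 973 without eGFP replicate 1 and 2997 without eGFP replicate 2. Against wt replicate 2 (27), the counts were 133, 16, 128 and 0 in the first 4 of these and 34 to 576 with a replicate left out, with 576 and 449 without eGFP replicate 1 or 2 and 64 without GIRK1 replicate 1. Between the controls (0), 6 were called without a filter, 5 by DESeq2 and 5 to 1268 with a replicate left out, the highest without eGFP replicate 2. The cause was not tested. Where an arm was left with 1 library, that library was assumed to vary like the other groups.

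The replicate numbers were fitted as a block although the labels do not say that they pair the libraries; the replicate differences of eGFP and GIRK1 had a correlation of 0.20 over 9288 genes. With the block, 549 genes were called against eGFP, 77 against wt replicate 2 and 1 between the controls, and 6, 5 and 0 of the 6 genes. The shallowest library of the fit was eGFP replicate 1, with 5126930 reads, of which 17 were of UBA7.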
